A study of Mus musculus with 38 samples.

Results

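The microRNA genes of the imprinted Dlk1-Dio3 region on mouse chromosome 12 were followed in mice of the inbred strain C57BL/6J that received haloperidol or placebo for 30 days, in their whole brains and their livers. Haloperidol is an antipsychotic drug and a blocker of dopamine D2 receptors, given here as slow-release pellets. The 4 groups were 10 haloperidol brains, 10 placebo brains, 9 haloperidol livers and 9 placebo livers, with each array from the tissue of a single mouse per the series' design text. Beyond the strain the sources used here give no genotype, and they give neither age nor sex. All animals came from a colony bred a few generations from purchased founders, and 18 of the title tags occur on both a brain and a liver array. Members were 41 microRNA genes named for the region, and 31 of them had a probe whose annotation gave that symbol alone, out of 18820 genes with such a probe. Of these 31, 5 (Mir673, Mir337, Mir540, Mir665 and Mir370) belong to the segment between Meg3 and the start of the Mir379 group and 26 to the segment from Mir379 to Mir410. Mir127, Mir136, Mir431, Mir433 and Mir434 shared their probes with the name Rtl1 and Mir410 shared its probe with Mirg, so these 6 were left out. So were the 4 for which no probe carried the symbol, Mir299, Mir493, Mir496 and Mir758. Mir299 and Mir496 are currently named Mir299a and Mir496a, and the probes under these symbols are described further on, apart from the members.

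The region is imprinted: the long noncoding RNAs Meg3, Rian and Mirg and the microRNAs are made from the maternally inherited chromosome, while Dlk1, Rtl1 and Dio3 are expressed mainly from the paternal one. The microRNAs are cut from long maternal transcripts, and in adult mice they are known as a brain-enriched group. A mature microRNA pairs with messenger RNAs mainly through its seed, a short stretch near its 5′ end, and lowers their stability or translation. Whether a probe read the long primary transcript, the hairpin or the mature form is not given in the sources used here, and the values below are therefore called values of the microRNA genes.

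Mature sequences from RefSeq (GRCm38.p6) were found for all 31 members with a probe, 59 in total with 57 distinct seeds. The arms of Mir543, Mir541 and Mir382 are shown because these genes had the smallest p in brain, those of Mir134 because it is the best studied of its segment, and the other pairs because they are the ones that share a seed. All lie on the plus strand, and the capitals mark the seed, bases 2 to 8.
miR-543-5p: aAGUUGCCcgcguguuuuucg
miR-543-3p: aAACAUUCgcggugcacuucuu
miR-541-5p: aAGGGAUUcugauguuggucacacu
miR-541-3p: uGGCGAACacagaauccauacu
miR-382-5p: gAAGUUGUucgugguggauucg
miR-382-3p: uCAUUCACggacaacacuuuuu
miR-134-5p: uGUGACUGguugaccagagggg
miR-134-3p: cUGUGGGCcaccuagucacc
miR-379-3p: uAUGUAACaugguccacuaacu
miR-411-3p: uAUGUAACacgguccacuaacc
miR-376b-5p: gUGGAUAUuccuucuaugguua
miR-376c-5p: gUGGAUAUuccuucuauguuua
miR-379-3p and miR-411-3p share the seed AUGUAAC, and miR-376b-5p and miR-376c-5p share UGGAUAU. Every other seed among the 59 mature sequences occurred once.

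Defining markers of the labelled tissues were present, with 6 of 6 neuron markers above the dim limit in brain and 8 of 8 hepatocyte markers above it in liver. The dim limit is the mean log2 value below which the lowest 33.3% of genes of a tissue were left out of the tests, 5.52 in brain and 3.92 in liver. Some brain arrays stood apart. Haloperidol 4T had a mean of 7.73 over the hepatocyte markers, against at most 4.46 in the other brains, haloperidol 4N lay lowest (-42.6) on the first principal component, and placebo 1L had the highest Gh value of the brains (11.49) and the lowest mean of choroid plexus markers (6.67). Gh, the growth hormone gene of the pituitary, was also high in haloperidol 1R (10.45) and haloperidol 2N (10.19). Brain results were therefore computed again with 4N, 4T and placebo 1L left out, and again with the 3 arrays highest in Gh left out. Each p-value sets a difference between groups, or between changes, against the spread between arrays of these mice.

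In brain the members were mostly lower with haloperidol. Of 31 members, 29 were bright enough to be tested, and 27 of them passed as lower and 0 as higher (limma, Benjamini-Hochberg adjusted p under 0.05), against 15.2% of all 12547 genes called lower and 15.2% called higher. The log2 change, haloperidol minus placebo, was negative for 31 of 31 members, with a median of -0.58 and a range of -0.78 to -0.23, beside a median of 0.00 over all 18820 genes. These changes correspond to values 1.18-fold to 1.71-fold lower with haloperidol. With the array median as a covariate, however, 0 of 29 passed in limma (1 member at an unadjusted p under 0.05) and the median change was 0.03, as described further on.

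The mean over the 31 members was between 6.42 and 7.45 in haloperidol brains (median 6.95) and between 7.13 and 7.83 in placebo brains (median 7.44). It lay below the lowest placebo array in 9 of 10 haloperidol arrays, and haloperidol 1R, at 7.45, was the exception. No single member separated the groups fully: the ranges overlapped for each of the 31. At least 9 of the 10 haloperidol values were under the placebo mean in 28 of 31 members, and the remaining counts were 8 of 10 for Mir540 and Mir376a and 7 of 10 for Mir673. No share over all genes stands beside these counts, so they do not show how unusual the members are. The spread was wider with haloperidol for 25 of 31 members, with a median SD of 0.337 against 0.27 with placebo.

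**Figure D1:**
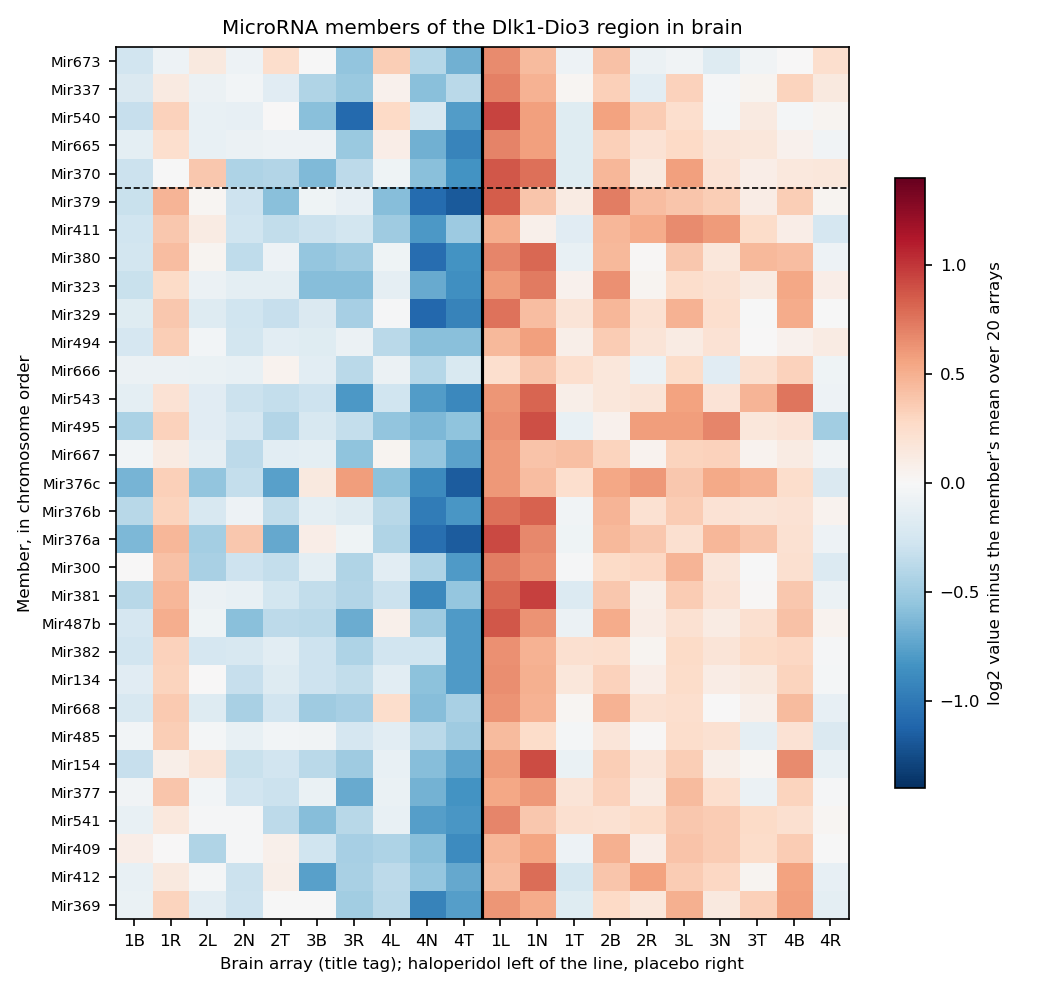
Brain values of the 31 members, one row per member in chromosome order and one column per array, as log2 value minus the member's mean over the 20 brain arrays. Haloperidol arrays, left, are mostly below the mean (blue) and placebo arrays, right, mostly above it (red), with haloperidol 1R among the placebo values and haloperidol 4N and 4T the lowest.

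Mir543 (chr12:109717258-109717333, GRCm38.p6 here and throughout) had log2 values of 5.69 to 6.79 in haloperidol brains (median 6.29) and 6.52 to 7.40 in placebo brains (median 6.92). Haloperidol 1R alone reached into the placebo range, and the change was -0.75 (SE 0.133, limma adjusted p = 0.00357), a value 1.69-fold lower. Mir541 (chr12:109742409-109742498) ran from 5.59 to 6.55 with haloperidol (median 6.17) and from 6.43 to 7.09 with placebo (median 6.67). Its ranges overlapped only through haloperidol 1R and placebo 4R, and it changed by -0.61 (SE 0.111, limma adjusted p = 0.00374). Mir382 (chr12:109733771-109733846) was at 7.77 to 8.89 in haloperidol brains (median 8.30) and at 8.55 to 9.20 in placebo brains (median 8.81). Again 9 of 10 haloperidol arrays lay below the lowest placebo array, with a change of -0.52 (SE 0.0993, limma adjusted p = 0.00423).

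Mir134 (chr12:109734139-109734209) is the best studied microRNA of the segment and is known in rodent neurons as a repressor of the kinase Limk1 at dendritic spines. It had log2 values of 8.25 to 9.35 with haloperidol (median 8.80) and 9.01 to 9.69 with placebo (median 9.25). Haloperidol 1R and 2L overlapped the placebo range, and the change was -0.50 (SE 0.107, limma adjusted p = 0.00444). Mir134 also followed the other members most closely, as its correlation with their mean shows below.

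At the start of the same segment, Mir379 (chr12:109709060-109709125) had a log2 value of 5.60 in its lowest haloperidol brain, 4T, and 7.25 in its highest, 1R (median 6.48), against 6.82 to 7.62 in placebo brains (median 7.15). Haloperidol 1R alone reached the placebo range, and the change was -0.74 (SE 0.162, limma adjusted p = 0.00476). Mir323 (chr12:109712508-109712593) was between 7.20 and 8.33 with haloperidol (median 7.83) and between 8.10 and 8.79 with placebo (median 8.29). Its change was -0.66 (SE 0.128, limma adjusted p = 0.00424), and haloperidol 1R alone overlapped the placebo arrays. Mir329 (chr12:109713481-109713577) ranged from 7.70 to 9.18 in haloperidol brains (median 8.56) and from 8.80 to 9.56 in placebo brains (median 9.13). It too changed by -0.66 (SE 0.141, limma adjusted p = 0.00445), with haloperidol 1R alone inside the placebo range.

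In the middle of the segment, Mir376b (chr12:109723458-109723539) had values of 6.89 to 8.18 in haloperidol brains (median 7.59) and 7.82 to 8.69 in placebo brains (median 8.08). The change of -0.65 (SE 0.135, limma adjusted p = 0.00444) was seen in 10 of 10 haloperidol arrays when each was set against the placebo mean, and haloperidol 1R alone overlapped the placebo range. Mir376c, whose 5p arm shares the seed of miR-376b-5p, had the lowest change of all members, -0.78 (SE 0.174), but was below the dim limit. It passed only in the fit of all genes without that filter (limma adjusted p = 0.00733), and the same held for Mir495 at -0.65 (limma adjusted p = 0.00742). Mir667 (chr12:109720006-109720097) was at 7.33 to 8.20 with haloperidol (median 7.94) and at 8.03 to 8.69 with placebo (median 8.39). Of the 10 haloperidol arrays, 7 lay under every placebo array, and the change was -0.51 (SE 0.104, limma adjusted p = 0.00432).

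Near the end of the segment, inside the annotated span of Mirg, Mir409 (chr12:109743158-109743236) had values of 6.13 to 7.10 in haloperidol brains (median 6.66) and 6.94 to 7.56 in placebo brains (median 7.37). The neighbouring Mir412 (chr12:109743289-109743368) had 6.22 to 7.12 (median 6.65) in haloperidol brains and 6.74 to 7.77 (median 7.36) in placebo brains. For each of these genes 6 of 10 haloperidol arrays lay under the lowest placebo array, with changes of -0.58 (SE 0.114, limma adjusted p = 0.00424) for Mir409 and -0.61 (SE 0.132, limma adjusted p = 0.00463) for Mir412.

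The segment between Meg3 and Mir379 gave 4 of 5 members lower, beside 15.2% of all genes tested. Mir370 (chr12:109618258-109618336), inside the span of Rian, ran from 5.40 to 6.61 with haloperidol (median 5.84) and from 6.06 to 7.10 with placebo (median 6.42). Of the 10 haloperidol arrays 7 were under the placebo range, and the change was -0.65 (SE 0.139, limma adjusted p = 0.00444). Mir540 changed by -0.52 (SE 0.163), Mir665 by -0.45 (SE 0.13) and Mir337 by -0.44 (SE 0.105), with limma adjusted p of 0.0206, 0.0138 and 0.00603. Mir673, the member nearest to Meg3, was at 5.99 to 7.01 in haloperidol brains (median 6.59) and at 6.48 to 7.33 in placebo brains (median 6.64) and did not pass (-0.26, SE 0.128, limma adjusted p = 0.117).

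The other member tested that did not pass was Mir485, at 7.71 to 8.55 with haloperidol (median 8.13) and 8.01 to 8.65 with placebo (median 8.39). Its change was -0.23 (SE 0.0905, limma adjusted p = 0.0524). The remaining 12 members that passed, all of the Mir379 to Mir410 segment, were Mir411, Mir380, Mir494, Mir666, Mir376a, Mir300, Mir381, Mir487b, Mir668, Mir154, Mir377 and Mir369. Their changes lay between -0.71 for Mir376a and -0.30 for Mir666. Among them Mir668 (chr12:109734732-109734797) had values of 7.15 to 8.12 in haloperidol brains (median 7.39) and 7.64 to 8.38 in placebo brains (median 7.97). Haloperidol 1R and 4L lay inside the placebo range, and the change was -0.50 (SE 0.12, limma adjusted p = 0.00594).

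**Figure D2:**
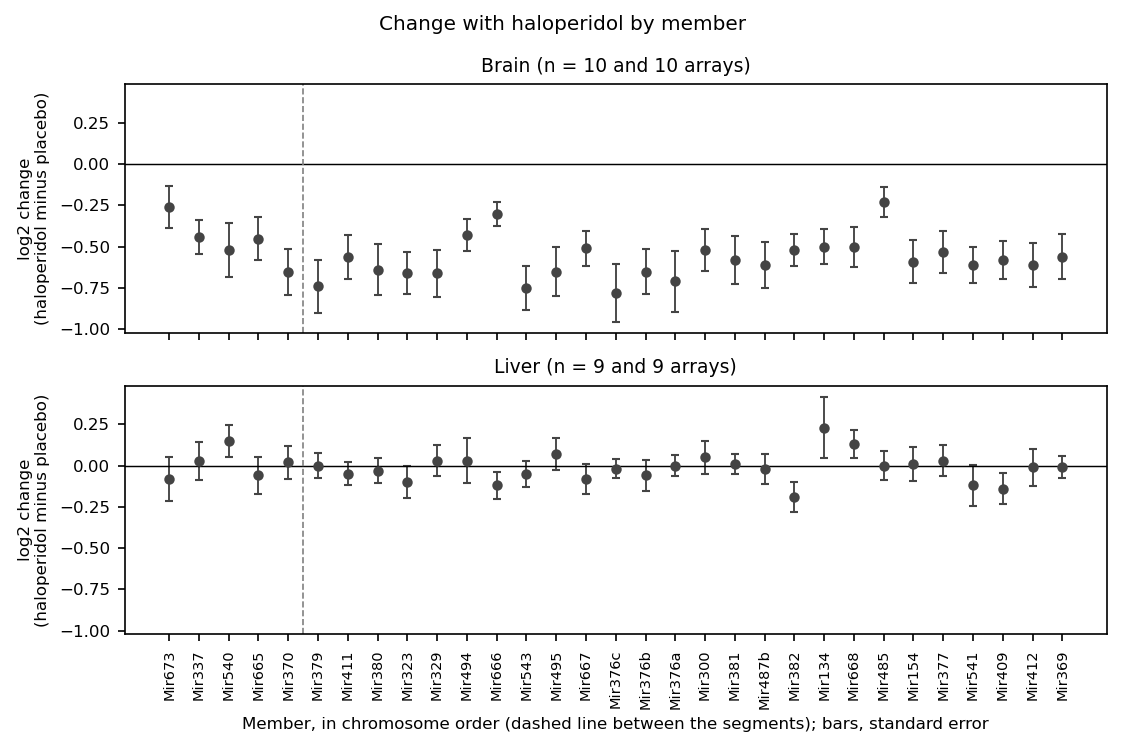
Change with haloperidol (log2, haloperidol minus placebo) for each of the 31 members in chromosome order, in brain (above) and liver (below), with limma standard errors. Without a covariate, brain changes are all negative, between -0.78 and -0.23, while liver changes lie between -0.19 and 0.23 on both sides of 0.

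The array median moved with the members. The median over all probes of an array was 6.08 to 6.33 in haloperidol brains (median 6.20) and 6.27 to 6.40 in placebo brains (median 6.34). Across the 20 brain arrays, with group means removed, the mean of the members and the array median had r = 0.96, and within the groups r was 0.97 over 10 haloperidol arrays and 0.94 over 10 placebo arrays (Spearman's rho 0.89 and 0.95; the arrays share normalization, and the values are descriptions). When each array's median was subtracted, 26 of 29 members stayed lower, with Mir666 no longer passing, against 3.72% of all genes called lower and 32.6% called higher, and the median change was -0.44 beside 0.14 over all genes. In that subtraction an array's shift counts 1 for 1, while the covariate fits its own slope for each gene. With the array median as a covariate 0 of 29 members passed in limma, with 1 at an unadjusted p under 0.05, and changes ran from -0.22 to 0.19, with 13 of 31 negative. With the first principal component as a covariate, 0 of 29 passed, 13 had an unadjusted p under 0.05, and changes ran from -0.72 to -0.05. In both of these fits 0 of all 12547 genes passed in limma, with 550 at an unadjusted p under 0.05 for the array median and 913 for the first component. The shift in the array median was not shared by all genes, whose median change without a covariate was 0.00. With group means removed, the mean of all genes tested had r = -0.58 with the mean of the members. Array medians and first components themselves differed between haloperidol and placebo, and where the shift in the array median came from was not tested.

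**Figure D3:**
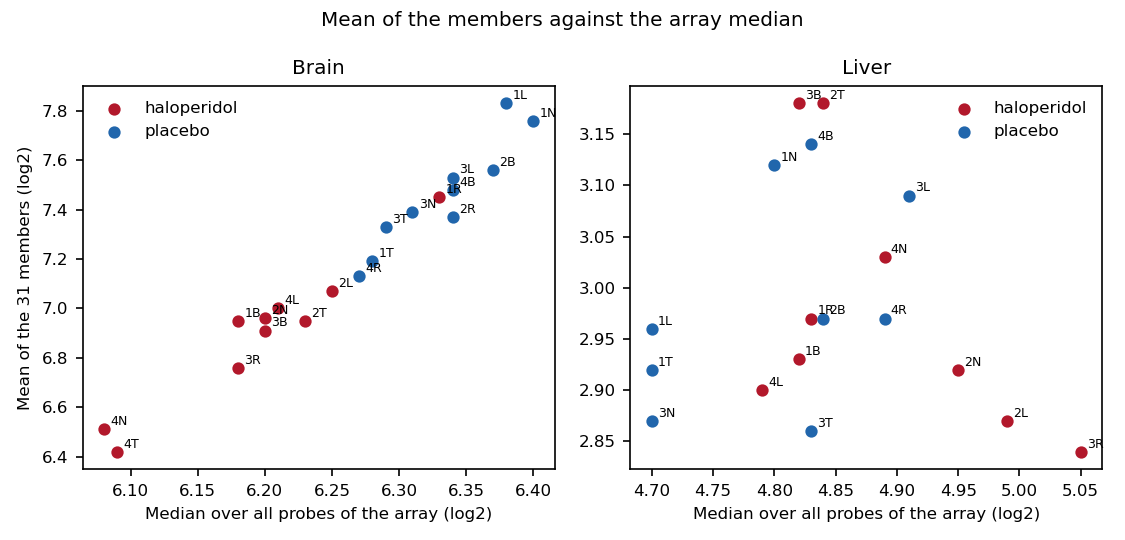
Mean log2 value of the 31 members against the median over all probes, one point per array labelled by its title tag, for brain (left) and liver (right), with haloperidol in red and placebo in blue. In brain the points fall along a line from haloperidol 4N and 4T to placebo 1L and 1N, and in liver they do not.

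Leaving out the arrays that stood apart kept most calls. With 4N and 4T of the haloperidol group and 1L of the placebo group left out, 25 of 29 members were lower, against 10.7% of all genes, with a median change of -0.44. Mir540 and Mir665 no longer passed. Without the 3 arrays highest in Gh, 28 were lower with a median change of -0.61, where 4778 of all genes were called in either direction. With no filter on dim genes, 29 of 31 were lower, against 8.84% of all genes.

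Some markers of other cells also differed between the groups in brain, where 15.2% of all genes tested were called higher. Of the microglia and macrophage markers 5 of 8 rose, with a mean over the list of 7.75 to 8.40 in haloperidol brains and 7.40 to 7.98 in placebo brains. Of the oligodendrocyte markers 3 of 5 rose (9.03 to 9.84 with haloperidol, 8.78 to 9.63 with placebo). Astrocyte markers gave 1 of 6 higher (9.96 to 10.26 and 9.54 to 10.15), near the share of all genes. Choroid plexus markers gave 2 of 7 higher (7.55 to 8.09 with haloperidol, 6.67 to 7.81 with placebo) and neuron markers 0 of 6 in either direction (11.69 to 11.88 and 11.72 to 11.93). Of the erythroid markers 1 was tested and rose, with a mean over both measured genes of 6.35 to 7.37 in haloperidol brains and 5.57 to 6.31 in placebo brains. With the array medians subtracted, where 32.6% of all genes were called higher, the markers called higher were 7 of 8 for microglia, 3 of 5 for oligodendrocytes, 4 of 6 for astrocytes, 3 of 7 for choroid plexus and 2 of 6 for neurons. Of the pituitary markers 2 were tested and 0 passed in limma under either scaling, also at an unadjusted p under 0.05, with a mean over the list of 4.53 to 6.45 in haloperidol brains and 4.52 to 6.66 in placebo brains. With group means removed, the mean of the members had r = -0.66 with microglia, -0.64 with oligodendrocyte, -0.69 with astrocyte, -0.60 with choroid plexus, -0.28 with neuron and 0.49 with pituitary markers over the 20 arrays. The part of these cells in the members' change was not tested, and in whole tissue fewer cells of a type and less RNA per cell cannot be told apart.

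Among the region's long genes, both maternal RNAs with a probe of their own were lower with haloperidol, and of the paternal genes Dlk1 did not pass and Dio3 was dim. Meg3, the noncoding RNA at the head of the maternal transcripts, had log2 values of 11.04 to 12.02 in haloperidol brains (median 11.60) and 11.84 to 12.22 in placebo brains (median 11.94). It changed by -0.42 (SE 0.106, limma adjusted p = 0.00727), and haloperidol 1R and 4L alone overlapped placebo. Rian, the next maternal transcript and host of small nucleolar RNAs, was at 8.09 to 9.13 with haloperidol (median 8.47) and 8.87 to 9.40 with placebo (median 9.06). Haloperidol 2L alone reached into the placebo range, and the change was -0.58 (SE 0.114, limma adjusted p = 0.00424).

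Dlk1, a paternally expressed transmembrane protein of the Notch ligand family, was at 7.54 to 8.62 in haloperidol brains (median 7.86) and 7.56 to 8.18 in placebo brains (median 7.91), a change of 0.00 (SE 0.107, limma adjusted p = 0.981). Dio3, the thyroid hormone deiodinase at the far end of the region, was below the dim limit, with 4.06 to 5.12 in haloperidol brains (median 4.59) and 3.71 to 4.31 in placebo brains (median 4.20). In the fit without the filter it was higher with haloperidol, by 0.44 (SE 0.103, limma adjusted p = 0.00801). With group means removed, the mean of the members had r = 0.89 with Meg3, 0.71 with Rian, -0.23 with Dlk1 and -0.45 with Dio3. Of the 9 flanking protein-coding genes outside the imprinted interval, 0 passed in limma and 1 had an unadjusted p under 0.05. With the array medians subtracted, 3 of these 9 were higher (Begain, Wdr25 and Ppp2r5c), near the 32.6% of all genes called higher there. Meg3 and Rian remained lower at -0.29 and -0.44 (limma adjusted p = 0.0139 and 0.00241), where 3.72% of all genes were called lower.

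**Figure D4:**
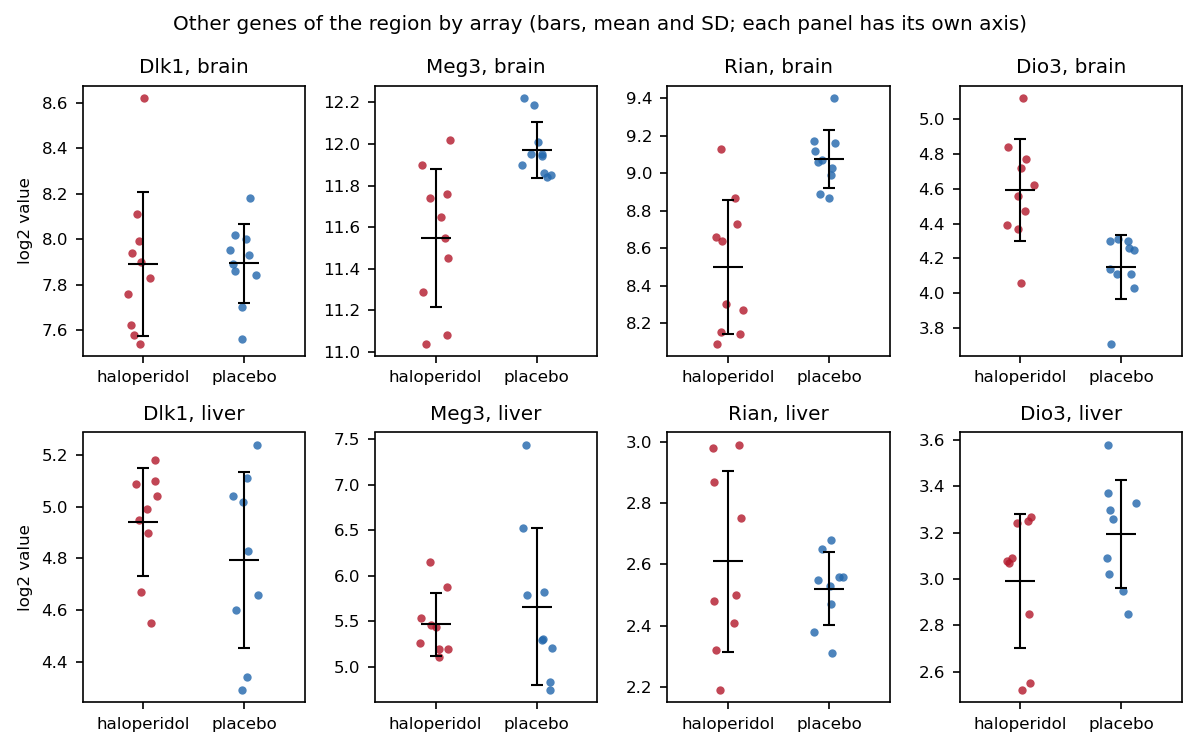
Log2 values of Dlk1, Meg3, Rian and Dio3 by array in brain (above) and liver (below), haloperidol left and placebo right in each panel, with mean and SD. In brain Meg3 and Rian are lower and Dio3 is higher with haloperidol, and Dlk1 overlaps throughout.

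The region held 5 further microRNA genes with a probe of their own, outside the 31 members measured. Among them, Mir299a and Mir496a are the current symbols of the named members Mir299 and Mir496, which the counts of members leave out. Mir341 changed by -0.64 (limma adjusted p = 0.00687), Mir679 by -0.57 (0.00432), Mir539 by -0.53 (0.0069) and Mir496a by -0.32 (0.0178). So 4 of 4 tested were lower, beside 15.2% of all genes. With the array medians subtracted 3 of 4 were lower, beside 3.72% of all genes, and Mir496a did not pass. Mir299a, at 3.33 to 3.93 in haloperidol brains and 3.27 to 3.99 in placebo brains, was dim.

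Among microRNA genes outside the region, lower calls also outnumbered higher ones. Of 267 with a probe, 83 were tested in brain, of which 47 were lower and 2 higher, beside 15.2% of all genes each way. The median change was -0.30 among those tested, beside -0.56 for the 29 tested members. With the array medians subtracted, 33 were lower and 4 higher, beside 3.72% of all genes called lower and 32.6% called higher. The difference between the members and the other microRNA genes was not tested. Among genes of microRNA processing and effectors, 6 of 16 were lower and 2 higher, beside 15.2% of all genes each way, and 3 were lower and 2 higher with the array medians subtracted. The calls for Tnrc6b, Tnrc6c and Ago4 were the ones lost. Dicer1, which cuts the hairpin, changed by -0.40 (SE 0.0871, limma adjusted p = 0.00453), and Tnrc6a, a partner of the Argonaute proteins in silencing, by -0.38 (SE 0.0952). Ran, the GTPase that drives nuclear export, rose by 0.53 (SE 0.111) and Prkra, a Dicer partner, by 0.52 (SE 0.112), with limma adjusted p of 0.00437 and 0.00454 against 0.00705 for Tnrc6a. Drosha, which releases the hairpin from the primary transcript, differed by -0.09 (limma adjusted p = 0.266) and Dgcr8, its partner, by -0.19 (limma adjusted p = 0.0515).

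Of 6 tested genes of imprinting and DNA methylation, 2 were lower, beside 15.2% of all genes. They were Dnmt3a, a de novo DNA methyltransferase, at -0.46 (SE 0.1, limma adjusted p = 0.00476) and Zfp57, a zinc finger protein that protects imprints, at -0.33 (SE 0.091, limma adjusted p = 0.0112). With the array medians subtracted Dnmt3a remained lower and Zfp57 did not pass (-0.19, limma adjusted p = 0.0642). Ctcf, an insulator protein, was then higher by 0.13 (limma adjusted p = 0.0398), beside a median change of 0.14 over all genes. Other imprinted genes did not share 1 direction, with 4 of 17 lower and 2 higher, beside 15.2% of all genes each way. The balance turned with the array medians subtracted, to 1 lower (Airn) and 4 higher (Ndn, Nnat, Cdkn1c and Sgce), where 32.6% of all genes were called higher. Without that subtraction Airn changed by -0.69, Zim1 by -0.34, Ndn by 0.37 and Nnat by 0.24, with limma adjusted p between 0.00647 and 0.0268. Of the MEF2 transcription factors, known activators of the Mir379 to Mir410 group in neurons, 0 of 3 passed in limma, with 1 at an unadjusted p under 0.05. Of the reported targets of miR-134, 0 of 3 passed in limma (1 at an unadjusted p under 0.05): Limk1 differed by 0.01, Pum2 by 0.07 and Dcx by -0.24 (limma adjusted p = 0.0931). With the array medians subtracted Pum2 was higher by 0.21 (limma adjusted p = 0.00946), and the MEF2 factors again gave 0 of 3, with 0 at an unadjusted p under 0.05.

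In liver most members were at the low end of the scale. Only 7 of 31 were above the dim limit of 3.92 (Mir673, Mir540, Mir665, Mir666, Mir667, Mir134 and Mir668), and 24 were left out as dim. Of these 7, 0 passed in limma and 0 had an unadjusted p under 0.05, against 0.0% of all 12547 liver genes called (1316 genes at an unadjusted p under 0.05). The count of members was also 0 in every alternative fit run in liver. The smallest adjusted p of a member was 0.571, and the median change over the 31 was -0.01, beside -0.02 over all genes. Mir382, the member of smallest p, was dim, at 2.05 to 2.43 in haloperidol livers (median 2.21) and 2.09 to 2.89 in placebo livers (median 2.36), a difference of -0.19 (SE 0.091, limma adjusted p = 0.611 without the filter).

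Mir540 was at 4.21 to 5.21 in haloperidol livers (median 4.90) and 4.55 to 4.93 in placebo livers (median 4.66), a difference of 0.15 (SE 0.096, limma adjusted p = 0.571). Mir668 differed by 0.13 (SE 0.0858, limma adjusted p = 0.598) and Mir409, dim here, by -0.14 (SE 0.0956). Mir134 had 3.71 to 4.80 in haloperidol livers (median 4.33) and 2.94 to 4.44 in placebo livers (median 4.33), a difference of 0.23 (SE 0.184, limma adjusted p = 0.656). The groups overlapped for each of these. Among the long RNA and protein-coding genes, Meg3 was at 5.10 to 6.15 in haloperidol livers and at 4.74 to 7.44 in placebo livers, and none of Meg3, Dlk1, Rian or Dio3 passed (limma adjusted p 0.67 to 0.895 without the filter).

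The difference between the tissues was tested directly, as the liver change minus the brain change in a fit of all 38 arrays. That fit took the arrays as independent, although 18 tags occur on both a brain and a liver array. Of the 7 members bright enough in both tissues, 4 had a higher change in liver, against 9.16% of 10869 genes. Mir668 differed by 0.63 (SE 0.153, limma adjusted p = 0.00421), from a liver change of 0.13 and a brain change of -0.50. Mir134 differed by 0.73 (SE 0.213, limma adjusted p = 0.0136), Mir540 by 0.67 (SE 0.2, limma adjusted p = 0.0146) and Mir667 by 0.43 (SE 0.141, limma adjusted p = 0.0263). The other members tested did not pass, Mir665 at 0.40, Mir666 at 0.19 and Mir673 at 0.18 (limma adjusted p 0.0965 to 0.509). With the array medians subtracted, 3 of 7 passed, against 2.5% of genes: Mir667 did not (0.21, limma adjusted p = 0.212), and Mir673 and Mir666 turned to -0.04 and -0.03. Without the filter 24 of 31 passed as higher in liver, against 4.81% of genes, among them Mir543 at 0.70 (SE 0.161, limma adjusted p = 0.00534) and Mir379 at 0.74 (SE 0.189, limma adjusted p = 0.00872). For the 24 members dim in liver a change there could be read only near the low end of the scale.

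Across arrays the members varied together in brain. With group means removed, the median Pearson correlation over 465 pairs of members was 0.70 over 20 brain arrays, with a range of -0.06 to 0.92, and 102 pairs were above 0.8. It was 0.58 with the array medians subtracted and also 0.58 with the 3 arrays that stood apart left out. Across haloperidol brains the mean of the members had an SD of 0.289, against 0.0726 for the array median. A subtraction of 1 for 1 can therefore leave part of their shared variation in place. The median correlation was 0.36 over pairs of the 83 other microRNA genes tested and 0.03 over pairs of all genes tested. Each of these was 0.17 with the array medians subtracted. For the members it was 0.70 without the subtraction and 0.58 with it, as above. Without the subtraction, the members' median was 0.72 within haloperidol brains and 0.71 within placebo brains, each over 10 arrays. The members thus also moved together inside each group.

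The members' common pattern followed particular arrays. Within the haloperidol group, 19 of 31 members had their lowest value in array 4T and 10 in 4N, and 25 had their highest in 1R. Within the placebo group 15 were lowest in 4R and 10 in 1T, while 17 were highest in 1L and 12 in 1N. Mir134 had the highest correlation with the mean of the other members (r = 0.96), followed by Mir665, Mir485, Mir380, Mir329 and Mir381 at 0.92 or 0.93. Mir376c (r = 0.48) and Mir666 (r = 0.53) followed them least, and these genes also formed the pair of lowest correlation, -0.06, although they lie 5.6 kb apart. Pairs taken across the segments had a median of 0.65, pairs within the Meg3 to Mir379 segment 0.76 and pairs within the Mir379 to Mir410 segment 0.71.

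In liver the median over the 465 pairs was 0.33 over 18 arrays (0.48 with the array medians subtracted), with a range of -0.46 to 0.86, and over pairs of other microRNA genes tested it was 0.17. The mean of the members there had r = -0.11 with the array median and 0.69 with Rian, 0.64 with Dio3, 0.53 with Dlk1 and 0.45 with Meg3. Levels were not compared between the tissues, since array medians of 4.70 to 5.05 in liver and 6.08 to 6.40 in brain showed them to lie on different distributions.

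**Figure D5:**
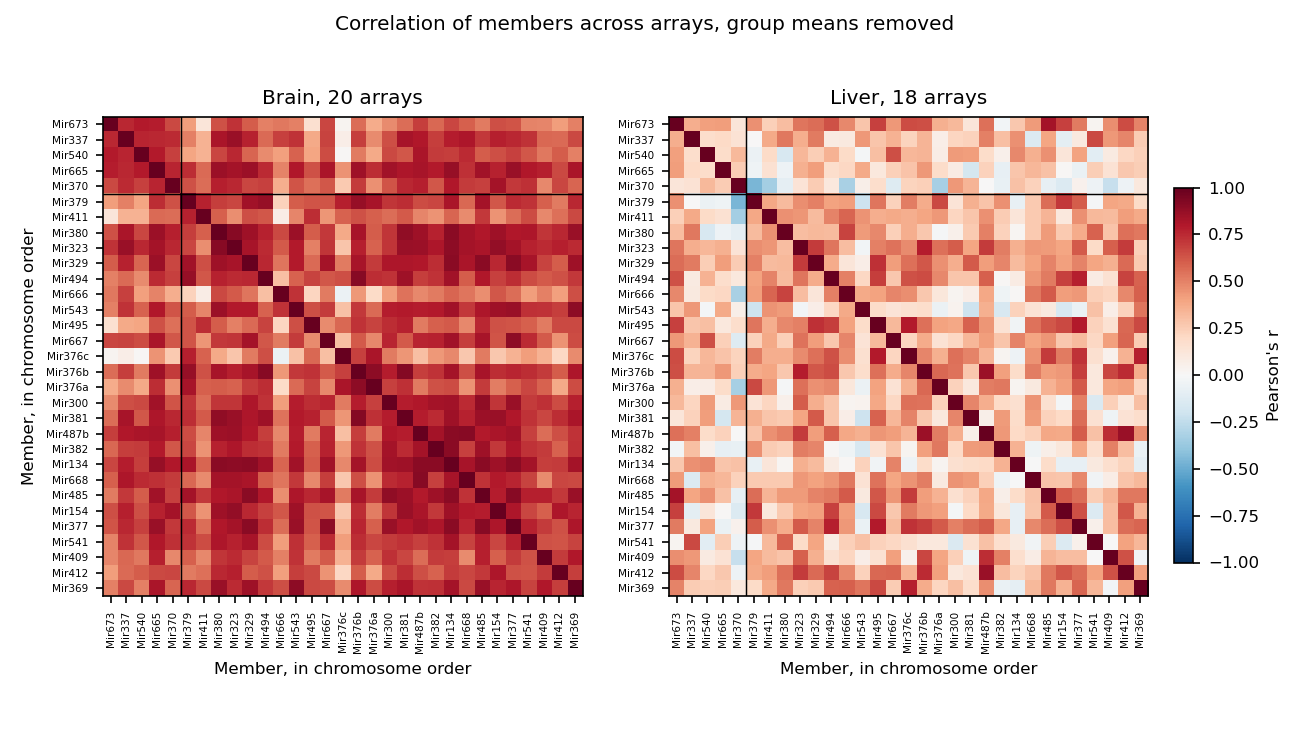
Pearson's r between members in chromosome order, with group means removed, over 20 brain arrays (left) and 18 liver arrays (right); black lines divide the segments. Brain pairs are mostly dark red (median 0.70) apart from Mir376c and Mir666, and liver pairs are paler (median 0.33).

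The genes whose pattern was most like the mean of the members were picked by Pearson's r with group means removed. Among 12518 other genes tested, the highest correlations over the 20 brain arrays were those of Slc39a2, a zinc transporter gene (r = 0.943), and Mir181b-1 (r = 0.924). Sinhcaf (0.919), A730017L22Rik (0.915), A330023F24Rik (0.912), Ralgapa2 (0.904), Slc38a6 (0.904), 2610005L07Rik (0.898), Fam193b (0.898) and Gm7265 (0.896) followed. All 10 were lower with haloperidol, with changes of -0.83 to -0.34 and limma adjusted p up to 0.038. In all 136 genes were above 0.8 and 19 below -0.8, around a median of -0.11. These arrays share the shift in the array median described above.

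Position and composition of the hairpins gave further description. The 31 genes lie within 171.5 kb, 5 of them over 46.3 kb and 26 over 34.4 kb, with 90.7 kb between these segments. The 6 members inside the annotated span of Mirg (Mir154, Mir377, Mir541, Mir409, Mir412 and Mir369) had changes of -0.61 to -0.53, the 4 inside the span of Rtl1, which is transcribed from the other strand, -0.52 to -0.26, and the 20 in no span of Meg3, Rtl1, Rian or Mirg -0.78 to -0.23. Hairpin GC content, known for 30 members, was between 29.1% and 62% (median 44.3%), and a higher GC content went with a smaller fall (r = 0.49, Spearman's rho 0.46, across genes that share arrays and transcripts). Across 229 other microRNA genes the same values were -0.11 and -0.16, at a median GC content of 47.9%.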

How the data were processed

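Values were deposited by the authors on a log2 scale; the submitters' processing notes name RMA and Affymetrix Expression Console. RMA background-corrects, gives arrays a common distribution and summarises probes, so changes are relative to the rest of the array. The sources used here give neither the array model nor tool versions. The 35556 probes took their names from the platform's annotation at GEO; 21218 had 1 symbol, 1881 several and 12457 none, and the probe of highest mean stood for a gene. Within each tissue the lowest 33.3% of genes by mean were left out and 12547 were tested with limma 3.58.1 in R 4.3.3 (two-sided, Benjamini-Hochberg over all genes tested, threshold 0.05); the difference between tissues used 10869 genes. Arrays of a group correlated at 0.979 to 0.9968, and none were identical. No signal over background was used, and the number of arrays limits the precision. The fits were checked on simulated data with independent genes and no array-wide shift. That check therefore does not cover the shift in the array median or the correlation between members. Values are given for the 12 members of smallest unadjusted p in brain, 4 in liver and 3 for the difference (fits without the filter), Mir134, Mir127 (no probe of its own), the locus genes, up to 4 passing genes of each other list and the 10 genes most alike; other names fill in counts. Members and lists were chosen with earlier results of these data known. Alternatives covered filter, normalization, variance model, weights, tag blocks, probe choice, covariates and arrays left out; leaving out the 3 arrays highest in Gh was chosen after seeing the data.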

Additional observations from a re-analysis of the deposited data

Results flagged for a closer look

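A single array lay far from the rest of its group in 13 of 164 tests of a gene or of the members' mean in a group, where chance flags about 1 in 20. In liver these were Mir540 in haloperidol 4L (4.21, others 4.83 to 5.21), Mir379 in haloperidol 3B (2.28, others 1.75 to 2.0) and in placebo 4R (1.64, others 1.90 to 2.16), and Mir411 in placebo 3T (1.68, others 1.99 to 2.20). Mir323 in haloperidol 2L (1.93, others 2.34 to 2.74), Mir376c in placebo 4B (1.66, others 1.48 to 1.56), Mir300 in haloperidol 2T (2.46, others 1.65 to 2.04) and Mir541 in haloperidol 4N (2.56, others 2.09 to 2.32) were of the same kind. All of these but Mir540 were dim in liver. In brain the arrays were haloperidol 1R for Mir495 (5.41, others 4.46 to 4.93), placebo 4R for Mir376c (5.20, others 5.63 to 6.01), haloperidol 4T for Dlk1 (8.62, others 7.54 to 8.11), placebo 3L for Dio3 (3.71, others 4.03 to 4.31) and placebo 4B for Mir299a (3.99, others 3.27 to 3.62). Haloperidol 4T is the array with hepatocyte transcripts, and their part in its Dlk1 value was not tested.

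The change differed between the tissues, liver minus brain, by 0.73 for Mir134, 0.67 for Mir540, 0.43 for Mir667 and 0.63 for Mir668 in limma's test of the difference, which are the 4 members named for it above.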

How the results depend on the processing

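The count of 27 members lower in brain was 25 to 29 under 11 of the alternatives to the full fit (arrays left out, normalization, variance model, weights, tag blocks, probe choice, no filter). It was 15 under a stricter filter on dim genes, where 15 of 15 members tested passed. It was 0 with the array median and 0 with the first component as covariate, where the median change was 0.035 and -0.297; the cause was not tested. Mir376b (0.036), Mir329 (0.055), Mir134 (0.038), Mir379 (0.036) and Mir668 (0.028) then turned direction with the array median. Leaving out each array in turn gave 27 to 28. The median change was -0.576 in the full fit. The liver count of 0 members was the same in each alternative run, though 40 of all liver genes passed in a fit of both tissues. For liver minus brain, 4 members passed, 24 without the filter, which tests 31 members in place of 7, 3 with the array medians subtracted (Mir667 lost) and 4 with the tag as a replicate block. What the tags mark is not given. All 18 tags shared by a brain and a liver array had the same treatment in both. Deviations of these pairs of arrays correlated at -0.318 to 0.249 and 5 exceeded 0.1. Such correlations cannot decide whether a tag marks a single mouse, since 2 tissues of a mouse need not vary together. The limits are the shift in the array median, which differs between the groups, and the dim liver values. Probe names from an annotation that can be old and the unknown form of RNA read are further limits.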
